A study of Mus musculus with 4 samples.

Results

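The liver levels of 10 genes of sinusoidal and vascular endothelium, Stab1, Stab2, Lyve1, Clec4g, Oit3, Pecam1, Kdr, Cdh5, Bmp2 and Vwf, were compared across exercise and amyloidosis in mice. The genes were chosen by symbol, as the rows of the read count table that carry these names, and each symbol matched 1 of the 35275 genes listed. The 4 groups were female mice carrying the amyloidogenic Apoa2c allele of apolipoprotein A-II (strain given as AKR/J in the labels and as the congenic line R1.P1-Apoa2c in the methods), all 26 weeks old when the liver was taken. Groups FS and FI had received AApoAII amyloid fibrils into the blood at 10 weeks of age (1 μg), and groups VS and VI the vehicle, and the control mice carried the same allele as the fibril mice. For 16 weeks VI and FI underwent interval training (IT) on a treadmill while VS and FS stayed sedentary. Liver from 4 mice was pooled within each group before RNA extraction, which gave 1 RNA-seq library per group and no replicate of any group.

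Liver sinusoids are lined by a specialised endothelium that has open pores and no continuous basement membrane, and that takes up waste macromolecules from blood through scavenger receptors such as the stabilins. Larger vessels of the liver, the portal and central veins and the hepatic artery, carry a continuous endothelium with tight and adherens junctions. Both kinds share junction and growth factor receptor genes. Among the members, Stab1, Stab2, Lyve1 and Clec4g are scavenger, hyaluronan or lectin genes typical of sinusoids. Oit3, also typical of sinusoids, encodes a secreted protein. Pecam1 and Cdh5 encode adhesion proteins of all endothelium, Kdr the main receptor for VEGF, Bmp2 a secreted BMP ligand, and Vwf a clotting protein of larger vessels. In whole liver the RNA of these cells is a small share of the total, and fewer endothelial cells and less RNA per cell cannot be told apart.

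The libraries held 23442935 counts (VS), 24524287 (VI), 28814802 (FS) and 24801185 (FI). Levels are given as counts per 1000000 counts of the library (CPM) scaled by TMM factors, with a 95% Poisson interval where it matters, and comparisons as log2 ratios with an exact conditional binomial 95% interval. Intervals and floors cover counting error only. They do not hold the variation between mice, so an interval that excludes 0 says that 2 libraries differed beyond their read sampling, not that the conditions did. A gene was called when its level differed more than 2-fold, read among 12180 genes that reached 1 CPM somewhere in the series, all 10 members included. The only test with p-values was an additive model over all 4 libraries (amyloidosis plus training, edgeR quasi-likelihood with Benjamini-Hochberg adjustment), which treats the interaction of both factors as error and has 1 residual degree of freedom.

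The top gene and the lowest pair were the same in each library, and the order was close in the middle. On the deposited FPKM scale, which divides by gene length, Clec4g led in each library, at 40.4 in VS and 32.7 in VI, against 33.3 in FS and 37.9 in FI, apart from the next gene by its counting interval. Oit3, Kdr, Stab2, Stab1, Bmp2, Pecam1 and Cdh5 lay between 3.41 and 7.52 FPKM, where most neighbours in the order overlapped by their intervals. Vwf and Lyve1 came last. Lyve1 was the lowest in VS (0.262 FPKM) and VI (0.391), and stood above Vwf in FS (0.719 against 0.456) and FI (2.46 against 0.406). The intervals of this pair overlapped in VS, VI and FS, and lay apart in FI. Kdr moved from rank 3 in VS and VI to rank 5 in FS and rank 8 in FI. The named sinusoidal genes were therefore present in every library, and Lyve1, which also marks lymphatic vessels, was at a low level in the vehicle livers.

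**Figure D1:**
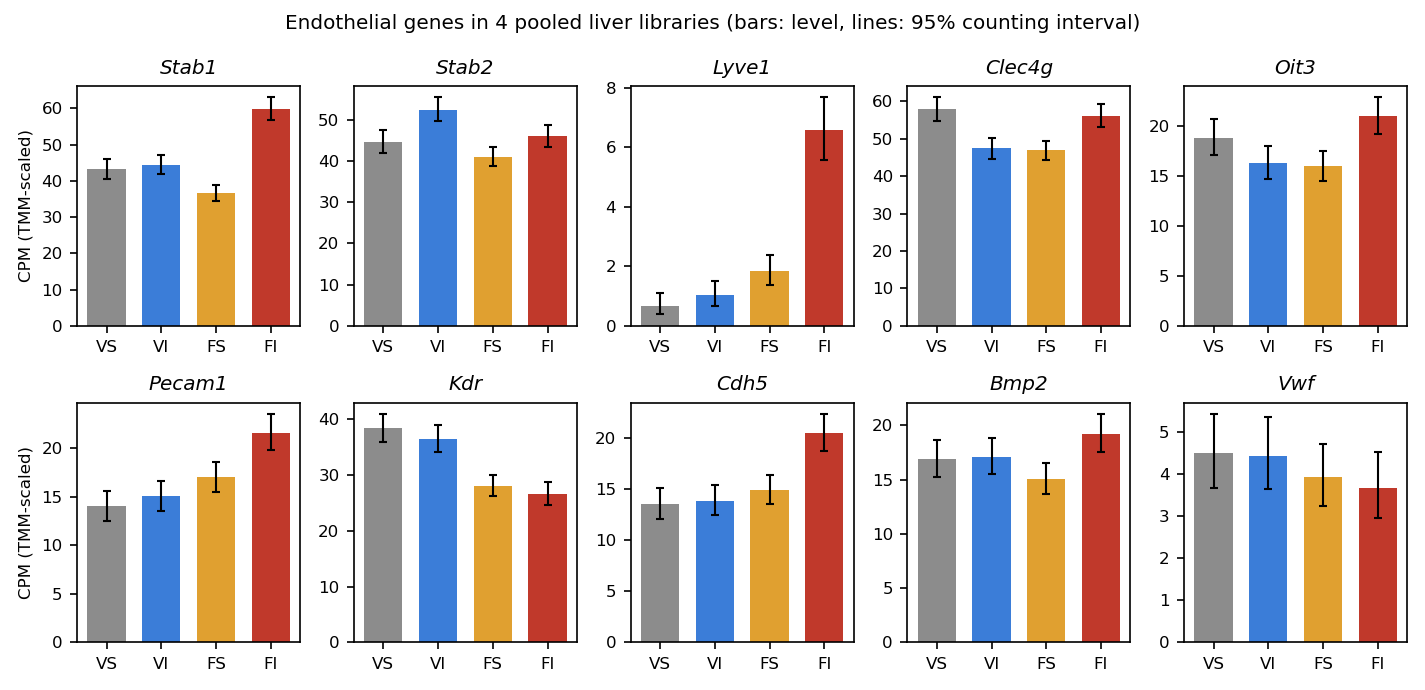
Level of each of the 10 genes (y axis, TMM-scaled CPM, each panel with its own scale from 0) in the pooled libraries VS, VI, FS and FI (x axis), with lines for the 95% Poisson interval of the count. Lyve1 climbs from 0.678 CPM in VS to 6.57 in FI, Kdr goes from 38.4 to 26.7, and Stab1, Pecam1 and Cdh5 are each highest in FI.

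Of the 10 genes, Lyve1 was the one that differed more than 2-fold in any comparison, and in 3 of them it was higher. In VI versus VS no member was called, against 3.44% of all genes tested (1.54% higher and 1.9% lower). In FI versus FS the share of all genes called was 4.28% (1.75% higher and 2.53% lower). It was 5.8% in FS versus VS (3.6% higher and 2.2% lower), and 4.54% in FI versus VI (2.59% higher and 1.95% lower). No member was called lower in any of the 4. Every other member stayed within 2-fold. Stab1 (a log2 ratio of 0.70) was the farthest from 0 of these in FI versus FS.

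Training was compared within vehicle mice and within fibril mice. The paper reported less liver amyloid in trained than in sedentary fibril mice, so FI and FS differ in amyloid load as well as in training. In vehicle mice the members lay close to 0, with a median log2 ratio of 0.03 against 0.00 for all genes tested. Of the members 6 were higher and 4 lower, against 50.7% and 49.3% of all genes. The intervals of Stab2 lay above 0 and those of Clec4g and Oit3 below 0, as did those of 22.3% (above) and 21.7% (below) of all genes. In fibril mice 8 of 10 members were higher in FI than in FS, all 8 with an interval above 0, and the median was 0.35 against 0.00 for all genes. Of all genes tested, 50.2% were higher and 49.8% lower, and 24.3% had an interval above 0 and 23.9% below. The 2 that were lower, Kdr (-0.07) and Vwf (-0.09), had intervals that held 0. The ratio was larger in fibril than in vehicle mice for 7 members, level for Kdr (0.00) and smaller for Stab2 and Vwf (-0.07 each), and the median difference between the ratios was 0.38 on the log2 scale. The difference for Lyve1, 1.25 (0.26 to 2.25), was past 2-fold, as was that of 5.82% of all genes. For Stab1 it was 0.67 (0.50 to 0.83), for Oit3 0.60 (0.34 to 0.87), for Clec4g 0.55 (0.39 to 0.70), for Cdh5 0.42 (0.14 to 0.71) and for Bmp2 0.34 (0.06 to 0.61). With 1 library in each group the difference between the ratios was not tested. The share of all genes with a larger ratio in fibril mice is not given. A similar shift was seen outside the members. The 20 other genes of endothelium in general had a median of -0.11 in vehicle and 0.37 in fibril mice, and the 12 other sinusoidal genes -0.01 and 0.16.

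Amyloidosis was compared within sedentary and within trained mice. Given the lower liver amyloid that the paper reported for FI than for FS, these comparisons are not at equal amyloid load. The additive model gives FS and FI the same level of amyloidosis. In sedentary mice 7 of 10 members were lower in FS than in VS, 5 of them with an interval below 0, and the median was -0.18 against 0.02 for all genes. Of all genes, 48% were lower and 52% higher, with 25.7% of the intervals below 0 and 27.2% above. In trained mice 7 of 10 were higher in FI than in VI, 6 of them with an interval above 0, and the median was 0.30 against 0.01 for all genes. Of all genes, 51.3% were higher and 48.7% lower, with 23.1% of the intervals above 0 and 23.8% below. An interval excludes 0 more readily the more counts a gene has. Lyve1, Pecam1 and Cdh5 were higher in both comparisons, and Kdr, Stab2 and Vwf lower in both. Stab1, Clec4g, Oit3 and Bmp2 were lower in FS than in VS and higher in FI than in VI. Each of the 4 libraries enters 2 of the 4 comparisons, so a high or low library moves both of its comparisons.

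**Figure D2:**
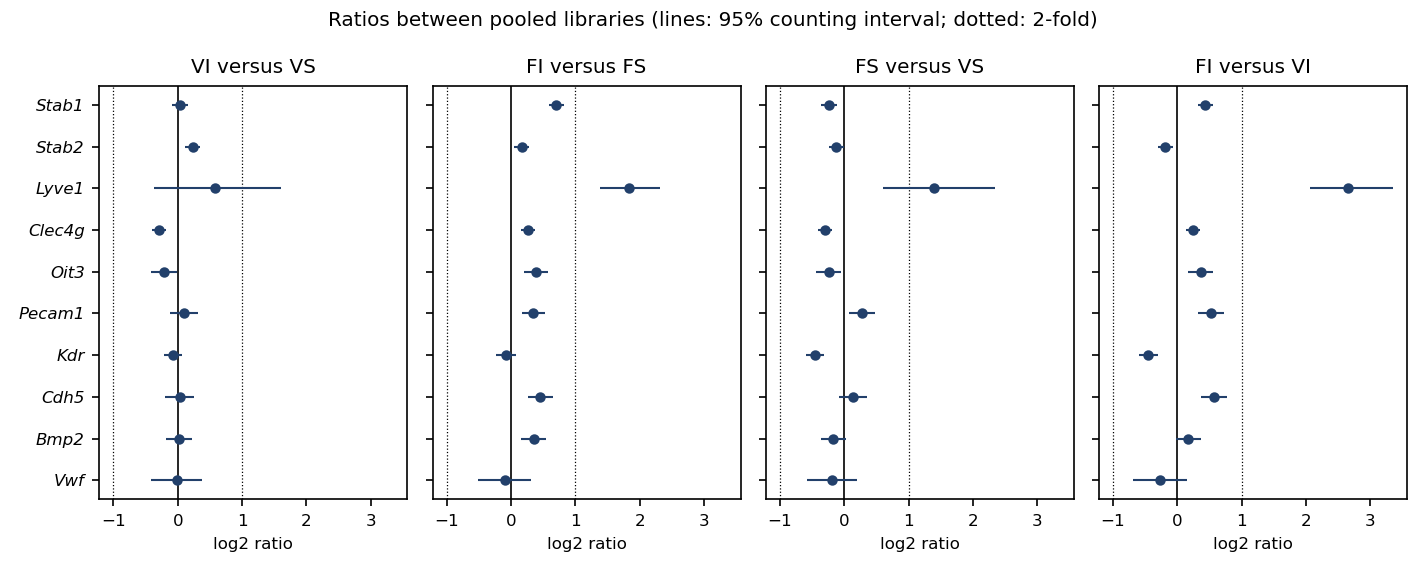
Log2 ratio of each gene (x axis) for training (VI versus VS, then FI versus FS) and for amyloidosis (FS versus VS, then FI versus VI), with lines for the 95% counting interval and dotted lines at 2-fold. Lyve1 lies past the upper dotted line in FI versus FS (1.84), FI versus VI (2.66) and FS versus VS (1.40), and the other genes lie inside both lines.

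Stab1 and Stab2 encode the stabilins, paired scavenger receptors of sinusoidal endothelium that clear hyaluronan, oxidised lipoproteins and other ligands. Stab1 (ENSMUSG00000042286, mm10 chromosome 14, 31139013 to 31168641, minus strand) had 1020 counts in VS and 1081 in VI, against 1084 in FS and 1447 in FI, or 43.2, 44.4, 36.7 and 59.8 CPM. Its FI interval (56.8 to 63.0 CPM) lay above those of the other 3 libraries. FI stood 0.70 (0.59 to 0.82) above FS and 0.43 (0.32 to 0.55) above VI on the log2 scale. In VI versus VS it was 0.04 (-0.09 to 0.16), and in FS versus VS it was -0.23 (-0.36 to -0.11). Stab2 (ENSMUSG00000035459, chromosome 10, 86841198 to 87008025, minus strand) had 1055, 1278, 1212 and 1114 counts in the same order, or 44.7, 52.5, 41.1 and 46.1 CPM. VI was its highest library and FS its lowest. With training the Stab2 log2 ratio was 0.23 (0.11 to 0.35) in vehicle and 0.17 (0.05 to 0.28) in fibril mice. With amyloidosis it was -0.12 in sedentary and -0.19 (-0.31 to -0.07) in trained mice. Stab1 counts per Stab2 count were 0.967 in VS (0.886 to 1.05), below 1 in VI (0.846, 0.779 to 0.918) and FS (0.894, 0.823 to 0.972), and above 1 in FI (1.30, 1.20 to 1.41). The additive model called neither gene (Stab1 adjusted p = 0.36 for training and 0.78 for amyloidosis, Stab2 adjusted p = 0.46 for amyloidosis). Stab1 shares 112 exon bases with Nt5dc2 and Stab2 141 with an antisense gene on the other strand. The sources used here do not give the strand setting of the counting, and Nt5dc2 itself had 213 to 300 counts.

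The promoters of the stabilins, and of Kdr described below, are shown because these genes, all of endothelium, differed in direction across the libraries. They are RefSeq sequences of build GRCm38.p6 from 250 bases before to 50 after the gene's start, read 5′ to 3′ on the gene's strand, with matches to the ETS family motifs CAGGAA or CCGGAA, on either strand, in capitals. ETS factors are regulators of endothelial genes in general. The windows are chr14:31168592-31168891 (Stab1), chr10:87007893-87008192 (Stab2) and chr5:75978406-75978705 (Kdr), all on the minus strand.
Stab1: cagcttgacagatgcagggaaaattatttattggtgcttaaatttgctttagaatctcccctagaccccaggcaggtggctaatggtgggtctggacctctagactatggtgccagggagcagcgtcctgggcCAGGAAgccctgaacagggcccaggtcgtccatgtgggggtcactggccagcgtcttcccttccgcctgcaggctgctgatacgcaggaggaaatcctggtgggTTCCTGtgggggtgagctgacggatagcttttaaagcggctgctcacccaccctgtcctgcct
Stab2: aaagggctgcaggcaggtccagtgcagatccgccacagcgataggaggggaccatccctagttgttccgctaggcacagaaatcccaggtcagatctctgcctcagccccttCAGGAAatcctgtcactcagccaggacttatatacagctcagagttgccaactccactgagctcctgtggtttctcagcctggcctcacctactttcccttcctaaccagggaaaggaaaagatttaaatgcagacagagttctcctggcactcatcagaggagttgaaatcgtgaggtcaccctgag
Kdr: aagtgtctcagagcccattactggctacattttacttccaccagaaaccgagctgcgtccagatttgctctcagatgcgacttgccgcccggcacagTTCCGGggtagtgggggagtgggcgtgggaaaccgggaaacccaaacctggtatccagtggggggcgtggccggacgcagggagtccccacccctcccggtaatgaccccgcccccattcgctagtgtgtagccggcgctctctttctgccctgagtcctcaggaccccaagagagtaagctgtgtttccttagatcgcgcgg
Stab1 held CAGGAA at position -117 from the start and its reverse complement at -13, Stab2 held CAGGAA at -138, and Kdr held the reverse complement of CCGGAA at -153, positions being those of the leftmost letter. The same search found CAGGAA at -216 in Clec4g. Of all 32851 promoters of this length, 30.6% hold CAGGAA and 14.9% CCGGAA, so such a match is common. None of these 4 member promoters held AGATAA, a motif of GATA family factors in 11.2% of all promoters, TGTTTAC of FOX factors (3.65%) or CCACACCC of KLF factors (3.56%). A match is a description of the letters and not of binding, and the other 6 members are named only.

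Lyve1 encodes a hyaluronan receptor that sinusoidal endothelium shares with lymphatic endothelium and some macrophages. Lyve1 (ENSMUSG00000030787, chromosome 7, 110850607 to 110862953, minus strand) had 16 counts in VS and 25 in VI, against 54 in FS and 159 in FI, or 0.678 (0.387 to 1.10), 1.03 (0.664 to 1.51), 1.83 (1.37 to 2.39) and 6.57 (5.59 to 7.68) CPM. The FI interval lay apart from the others, while that of VI overlapped both VS and FS. FI was 3.57-fold above FS (log2 ratio 1.84, 1.39 to 2.32) and 6.30-fold above VI (2.66, 2.06 to 3.35), and FS was 2.64-fold above VS (1.40, 0.61 to 2.34). In VI versus VS the log2 ratio was 0.58 (-0.36 to 1.60). FI against VS, the library with both treatments against the library with neither, gave 9.44-fold (log2 3.24, 2.53 to 4.12). Among the 12180 genes ranked from the highest ratio down, Lyve1 was number 31 in FI versus FS, 20 in FI versus VI, 192 in FS versus VS and 656 in VI versus VS.

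In the additive model Lyve1 was the only member called for amyloidosis, where 4.59% of all 11760 genes tested were called (2.64% higher and 1.96% lower). Its log2 change was 2.17 ± 0.37 (SE, adjusted p = 0.019) and it was higher with fibrils in 2 of 2 comparisons. Over the alternatives the adjusted p ran from 8.4e-09 to 0.25, and the call was lost when amyloidosis was fitted alone (adjusted p = 0.25). For training, where 1.34% of all genes were called (0.672% higher and 0.663% lower), no member was called by edgeR, DESeq2 or limma. Of the 10 members, 1 had an unadjusted p under 0.05 for training in edgeR, Lyve1 (log2 change 1.44 ± 0.36, adjusted p = 0.13). For amyloidosis 3 of the 10 did, Lyve1, Kdr and Pecam1. Counts at an unadjusted p, here and below, are given without the share of all genes and are descriptions only.

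The low Lyve1 counts in VS and VI carry wide intervals, and on the FPKM scale with a pseudocount of 1 the log2 ratio was 0.45 in FS versus VS, which is below 2-fold. Against Stab2 in the same library, which removes the library size, Lyve1 had 0.0152 counts per Stab2 count in VS and 0.0196 in VI, against 0.0446 in FS and 0.143 (0.120 to 0.169) in FI. Genes of lymphatic endothelium had few counts. Pdpn had 2, 1, 0 and 0 counts in VS, VI, FS and FI, Ccl21a had 21, 26, 18 and 6, and Mmrn1 had 0, 3, 8 and 8. Their part in the Lyve1 level was not tested. Prox1, a lymphatic regulator that hepatocytes also express, lay between 88.1 and 95.5 CPM. In FI the floor of 3 counts corresponds to 0.124 CPM.

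Centred over the 4 libraries, Cd14 was the gene whose log2 CPM lay closest to that of Lyve1 (root mean square difference 0.28), followed by Cyp2b10 (0.35) and Saa3 (0.40). Cd14, the lipopolysaccharide co-receptor, had 78 counts in VS and 130 in VI, against 332 in FS and 565 in FI. Cyp2b10, a drug-metabolising enzyme of hepatocytes, had 265, 767, 1216 and 2816, and Saa3, an acute phase protein, had 185, 186, 333 and 862. All 3 were highest in FI and lowest or level with VI in VS. This likeness was measured over 4 libraries, against all genes reaching 5 CPM in a library.

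Clec4g and Oit3 moved much alike. Clec4g encodes a C-type lectin of sinusoidal endothelium (LSECtin), and Oit3 a secreted protein first described in liver. Clec4g (ENSMUSG00000074491, chromosome 8, 3707064 to 3720651, minus strand) had 1367 counts in VS and 1155 in VI, against 1384 in FS and 1357 in FI, or 57.9, 47.4, 46.9 and 56.1 CPM. Oit3 (ENSMUSG00000009654, chromosome 10, 59422958 to 59441778, minus strand) had 445, 397, 471 and 507 counts, or 18.8, 16.3, 16.0 and 20.96 CPM. Both were high in VS and FI and low in VI and FS. With training Clec4g was at -0.29 (-0.40 to -0.17) on the log2 scale in vehicle mice and at 0.26 (0.15 to 0.37) in fibril mice. Oit3 was at -0.21 (-0.41 to -0.01) and 0.39 (0.21 to 0.58). Amyloidosis gave the same crossing, with Clec4g at -0.30 (-0.41 to -0.20) in sedentary and 0.24 (0.13 to 0.36) in trained mice, and Oit3 at -0.24 (-0.43 to -0.05) and 0.36 (0.17 to 0.56). The additive model, which averages over such a crossing, left both far from its threshold for amyloidosis (Clec4g adjusted p = 0.93, Oit3 adjusted p = 0.88). Clec4g shares 146 exon bases with an antisense gene that had 0 to 4 counts.

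Pecam1 and Cdh5, genes of all endothelium, were both highest in FI. Pecam1 encodes PECAM-1 (CD31), a junction protein that platelets and leukocytes also carry, and Cdh5 encodes VE-cadherin, the endothelial adherens junction cadherin. Pecam1 (ENSMUSG00000020717, chromosome 11, 106654217 to 106750628, minus strand) had 331 counts in VS and 367 in VI, against 502 in FS and 523 in FI, or 14.0, 15.1, 17.0 and 21.6 CPM. Cdh5 (ENSMUSG00000031871, chromosome 8, 104101625 to 104144502, plus strand) had 319, 337, 439 and 494, or 13.5, 13.8, 14.9 and 20.4 CPM. In FI versus FS the log2 ratio was 0.35 (0.17 to 0.53) for Pecam1 and 0.46 (0.27 to 0.65) for Cdh5, and in FI versus VI 0.52 (0.33 to 0.72) and 0.56 (0.36 to 0.77). In FS versus VS Pecam1 was at 0.28 (0.08 to 0.48) and the interval of Cdh5 held 0 (0.14, -0.07 to 0.35). Between VI and VS neither gene differed beyond counting error. Their ratio to each other stayed between 1.04 and 1.14 Pecam1 counts per Cdh5 count. In the additive model the amyloidosis term was 0.40 ± 0.14 for Pecam1 (SE, adjusted p = 0.16) and 0.35 ± 0.16 for Cdh5 (adjusted p = 0.25), neither past the threshold.

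Kdr went the other way. Kdr encodes VEGFR2, the receptor through which VEGF-A acts on endothelium. Kdr (ENSMUSG00000062960, chromosome 5, 75932827 to 75978458, minus strand) had 907 counts in VS and 888 in VI, against 829 in FS and 645 in FI, or 38.4, 36.5, 28.1 and 26.7 CPM. Both fibril libraries lay below both vehicle libraries, at -0.45 (-0.59 to -0.31) on the log2 scale in sedentary mice and -0.45 (-0.60 to -0.30) in trained mice, from comparisons that share no library. With training it was -0.08 (-0.21 to 0.06) in vehicle and -0.07 (-0.23 to 0.08) in fibril mice. The amyloidosis term was -0.45 ± 0.11 (SE, adjusted p = 0.070, unadjusted p = 0.0045), which missed the threshold in edgeR with TMM. It passed in 2 of 8 settings, with DESeq2 size factors (adjusted p = 0.046) and with no filter on low counts (adjusted p = 0.013). Set against junction genes of the same library, Kdr had 2.84 counts per Cdh5 count in VS, 2.64 in VI, 1.89 in FS and 1.31 (1.16 to 1.47) in FI. Per Pecam1 count it had 2.74, 2.42, 1.65 and 1.23. Relative to endothelial genes in general (median of 20 others) Kdr was at -0.02 with amyloidosis in sedentary mice and at -0.69 (-0.84 to -0.54) in trained mice. The list's own median was -0.43 in sedentary mice, near that of Kdr, and 0.24 in trained mice, where Kdr lay on the other side of 0.

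**Figure D3:**
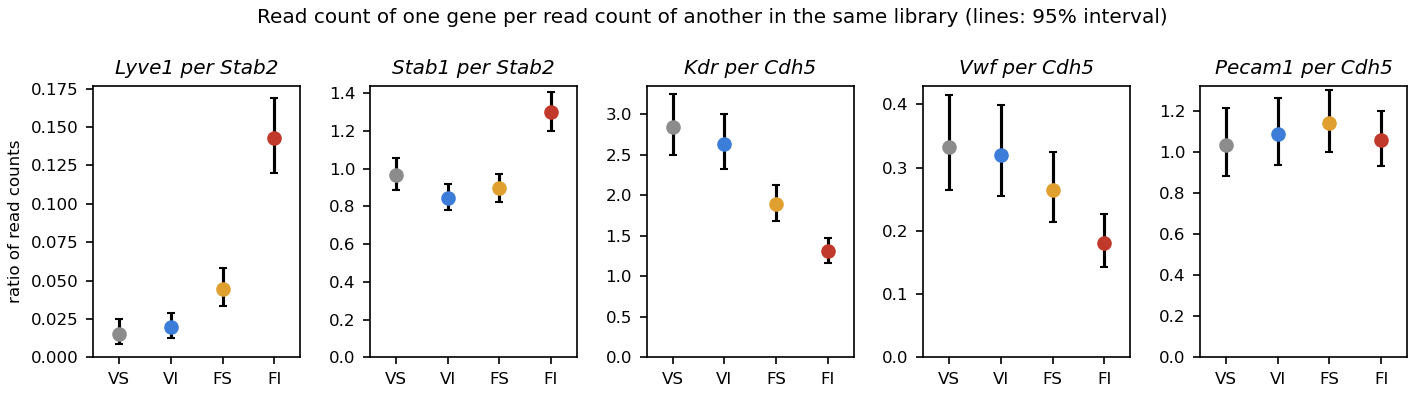
Read count of 1 gene per read count of another in the same library (y axis, from 0) in VS, VI, FS and FI (x axis), with lines for the 95% interval. Kdr per Cdh5 goes down from 2.84 in VS to 1.31 in FI, and Lyve1 per Stab2 goes up from 0.0152 to 0.143.

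The genes of the VEGF pathway were described beside Kdr. Of 9 listed, 8 entered the additive model and none was called for either factor by edgeR, DESeq2 or limma, with 4 at an unadjusted p under 0.05 for amyloidosis in edgeR and 4 for training. Vegfa, the main ligand, which hepatocytes make, had 200.5 CPM in VS, 152.7 in VI and 125.1 and 125.9 in FS and FI, so that both fibril libraries lay below both vehicle libraries, as for Kdr (adjusted p = 0.088, and named after its values were seen). Flt1, the receptor VEGFR1, differed from Kdr, with 172, 212, 176 and 363 counts and a log2 ratio of 1.33 in FI versus FS. Figf (VEGF-D, a ligand of VEGFR3) had 16, 26, 9 and 27 counts, with 1.82 in FI versus FS and -1.12 in FS versus VS. The list's median was -0.34 in FS versus VS and -0.20 in FI versus VI, against 0.02 and 0.01 for all genes.

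Bmp2 encodes a BMP ligand that liver endothelium supplies to hepatocytes, where BMP signalling induces the iron hormone hepcidin. Bmp2 (ENSMUSG00000027358, chromosome 2, 133552159 to 133562885, plus strand) had 399 counts in VS and 417 in VI, against 444 in FS and 465 in FI, or 16.9, 17.1, 15.0 and 19.2 CPM. FI was the highest and FS the lowest, with a log2 ratio of 0.35 (0.16 to 0.54) between them. The intervals of its other 3 comparisons held 0. In the additive model Bmp2 had an amyloidosis term of 0.00 (adjusted p = 1.0). Of the 23 other genes of BMP and iron signalling, 2 were called lower for amyloidosis by edgeR, Hamp2, a mouse hepcidin paralogue, and Hfe2 (hemojuvelin, a BMP co-receptor, named after its values were seen). Hamp2 had 3964, 4564, 2448 and 3087 counts in VS, VI, FS and FI (adjusted p = 0.022), and Hfe2 had 1690, 1665, 1110 and 1009 (adjusted p = 0.012). Hamp and Hamp2 are paralogues, and how reads that match both were counted is not given in the sources used. Hamp itself had 17485, 30710, 27884 and 33793 counts and was not called (adjusted p = 0.33). No other gene of the list passed for either factor in edgeR, with 4 of 23 at an unadjusted p under 0.05 for training, while DESeq2 and limma each called 1 for training.

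Vwf, von Willebrand factor, is stored by endothelium of larger vessels and by platelets. Vwf (ENSMUSG00000001930, chromosome 6, 125546774 to 125686679, plus strand) had 106 counts in VS and 108 in VI, against 116 in FS and 89 in FI, or 4.49, 4.43, 3.93 and 3.68 CPM. All 4 intervals overlapped, each of the 4 comparisons had an interval that held 0, and the amyloidosis term was -0.23 (adjusted p = 0.59). Per Cdh5 count, Vwf went from 0.332 in VS and 0.320 in VI to 0.264 in FS and 0.180 in FI. Of the 8 platelet genes listed, 2 were at 1 CPM or more, Gp6 and Treml1 had no count in any library, and their sum was 6.23 to 8.89 CPM. Gp1ba, a platelet receptor subunit, had 16, 31, 10 and 37 counts (a log2 ratio of 2.12 in FI versus FS).

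Genes of arterial, venous and other continuous endothelium split. Of 9 listed, 7 entered the additive model and 3 were called for amyloidosis by edgeR, 2 higher and 1 lower, against 2 by DESeq2 and 3 by limma. Thbd (thrombomodulin, an anticoagulant surface protein) had 55 counts in VS and 54 in VI, against 154 in FS and 211 in FI, with log2 ratios for amyloidosis of 1.15 in sedentary and 1.97 in trained mice (adjusted p = 0.017). Gja4 (connexin 37, a gap junction protein of arteries) had 116, 120, 231 and 267 counts, with 0.67 and 1.16 (adjusted p = 0.042). Cldn5 (claudin 5, a tight junction protein) had 231, 217, 148 and 72 counts, with -0.96 and -1.57 (adjusted p = 0.020). Ackr1, a chemokine-binding receptor of venules, had 64, 53, 58 and 24 counts, with -1.12 in FI versus VI (adjusted p = 0.22). None of the list was called for training by edgeR, DESeq2 or limma, and none had an unadjusted p under 0.05 in edgeR.

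Of the 5 genes of activated endothelium that were tested, Vcam1 had the largest ratio, an adhesion molecule that macrophages and other cells can also express. Vcam1 had 176 counts in VS and 300 in VI, against 539 in FS and 693 in FI, the same order of libraries as Lyve1. Its log2 ratio for amyloidosis was 1.29 in sedentary and 1.22 in trained mice, and for training 0.72 in vehicle and 0.65 in fibril mice. The amyloidosis term was called (adjusted p = 0.0061), the only one among the 5 genes of the list that were tested. The list as a whole did not move with Vcam1. In FS versus VS 3 of the 5 were higher and 2 lower (median 0.19), and in FI versus VI 4 were higher and 1 lower (0.17). For training 2 were higher and 3 lower in vehicle mice (median -0.21) and in fibril mice (-0.01). Ackr1, also on this list, was lower in both amyloidosis comparisons (-0.46 and -1.12). Of 7 angiocrine genes, which endothelium uses to signal to hepatocytes, 6 were tested and none was called by edgeR, DESeq2 or limma for either factor, with 2 at an unadjusted p under 0.05 for amyloidosis in edgeR and none for training. Wnt9b, a Wnt ligand of the central vein, had 14, 12, 32 and 28 counts (a log2 ratio of 1.20 in FI versus VI).

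Other endothelial genes gave the members a reference. Of the 12 other sinusoidal genes none differed more than 2-fold in any comparison. Gata4, a transcription factor of sinusoidal identity, went farthest, with 364 counts in VS and 332 in VI, against 238 in FS and 330 in FI (a log2 ratio of -0.93 in FS versus VS). The list's medians were -0.01 and 0.16 for training in vehicle and fibril mice, and -0.11 and -0.11 for amyloidosis in sedentary and trained mice. Of the 20 other genes of endothelium in general, 19 were lower in FS than in VS, with a median of -0.43. Their median was 0.37 in FI versus FS, 0.24 in FI versus VI and -0.11 in VI versus VS. Nos3, endothelial nitric oxide synthase, had 48, 56, 39 and 114 counts (1.82 in FI versus FS and 1.03 in FI versus VI). Sox18, a transcription factor of vessels, had 155, 88, 91 and 113 (-1.09 in FS versus VS), and Sox7, its relative, had 37, 18, 32 and 22 (-1.06 in VI versus VS). No gene of either list was called in the additive model by edgeR, DESeq2 or limma. In edgeR 3 of the 12 and 4 of the 20 had an unadjusted p under 0.05 for amyloidosis, and none of the 12 and 3 of the 20 for training.

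Centred on the median of those 20 genes, the members had a median of -0.02 in FI versus FS, 0.14 in VI versus VS, 0.25 in FS versus VS and 0.07 in FI versus VI. In FI versus FS the members (median 0.35) were thus near these 20 genes (0.37), while the 12 other sinusoidal genes had a median of 0.16. After centring, Lyve1 remained at 1.47 (1.02 to 1.95) and Stab1 at 0.33 (0.22 to 0.45) in FI versus FS. Vwf (-0.46, -0.88 to -0.06), Kdr (-0.45, -0.60 to -0.30), Stab2 (-0.21, -0.32 to -0.09) and Clec4g (-0.11, -0.22 to -0.003) lay below 0. The intervals of Oit3, Pecam1, Cdh5 and Bmp2 held 0. In FS versus VS, Lyve1 (1.83, 1.03 to 2.77), Pecam1 (0.71, 0.50 to 0.91) and Cdh5 (0.57, 0.36 to 0.78) lay farthest above the median of the other endothelial genes. Stab2 (0.31, 0.19 to 0.43), Bmp2 (0.26, 0.06 to 0.46), Stab1 (0.19, 0.07 to 0.32) and Clec4g (0.12, 0.01 to 0.23) also lay above it. There the intervals of Oit3, Vwf and Kdr held 0. The intervals hold the counting error of the member and not the spread of the 20 genes.

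**Figure D4:**
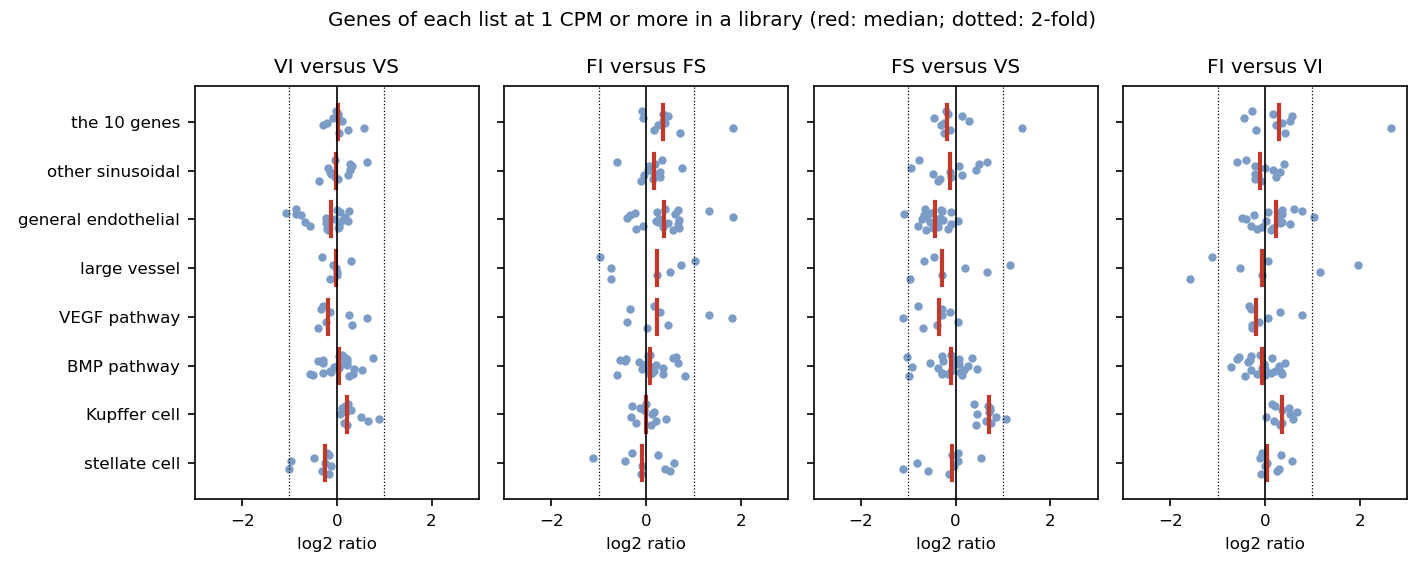
Log2 ratio (x axis) of each gene with at least 1 CPM in a library, by gene list (rows), in each of the 4 comparisons, with red marks for the list's median and dotted lines at 2-fold. The general endothelial list sits left of 0 in FS versus VS (median -0.43) and right of it in FI versus FS (0.37), and the Kupffer cell list sits right of 0 in FS versus VS (0.71).

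Markers of the other liver cells moved with some of these comparisons, and their part in the members' values was not tested. All 11 Kupffer cell genes exceeded their vehicle level in FS and in FI, with medians of 0.71 and 0.37 and a summed level of 335 CPM in VS and 403 in VI, against 516 in FS and 508 in FI. The additive model called 3 of them higher for amyloidosis, Marco (adjusted p = 0.040), C1qb (0.017) and C1qa (0.047), the last pair named after their values were seen, while DESeq2 called 1 and limma 4. Lyve1, Cd14 and Vcam1 can also be expressed by macrophages. The summed level of the 6 leukocyte genes was 8.46 to 12.1 CPM. The 9 stellate cell genes summed to 343 to 426 CPM and had no call in either factor by edgeR, DESeq2 or limma, with 1 at an unadjusted p under 0.05 in edgeR for training and none for amyloidosis. The 6 cholangiocyte genes, of which 3 reached 1 CPM, summed to 12.6 to 20.2 CPM, and the 6 hepatocyte genes, albumin among them, to 144123 CPM in VS and 162680 CPM in FI. Among these cells, the genes past 2-fold in a comparison were Marco (a log2 ratio of 1.06 in FS versus VS), S100a8 (1.29) and S100a9 (1.03) of neutrophils in the same comparison, Cd79a of B cells (-1.67 in VI versus VS), and Des (-1.12 in FS versus VS) and Pdgfrb (-1.12 in FI versus FS) of stellate cells. Also past 2-fold were Sox9 (1.19 in FS versus VS) and Spp1 (-1.07 in FI versus FS) of cholangiocytes and the urea cycle gene Ass1 (1.02 in VI versus VS) of hepatocytes. The 13 skeletal muscle genes, of which 1 was at 0 throughout, summed to 78.8 CPM in VS and 10.2 in VI, against 1.15 in FS and 1.07 in FI, so muscle transcripts were highest in VS. Myh2, a myosin of fast muscle, had 137, 15, 0 and 0 counts, Mb (myoglobin) 246, 25, 1 and 0, Acta1 (muscle actin) 455, 64, 7 and 0, and Tnni2 (a troponin) 143, 22, 1 and 3. The 11 muscle genes that reached 1 CPM were lower past 2-fold in FI than in VI as well.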

How the data were processed

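Liver RNA-seq was analysed in 4 libraries (VS, VI, FS and FI), each a pool of 4 mice. The authors trimmed and filtered reads, aligned them to mm10 and counted them per gene; the submitters' processing notes name fastp 0.23.2, STAR 2.5 and HTSeq 0.6.1, and for the annotation release and the strand setting nothing is given in the sources used. The deposited read counts were used as they stand for ratios and tests. The deposited FPKM values, which the authors scaled by gene length and library total, were used to order genes within a library. With a pseudocount of 1 or 0.1 they also gave alternative ratios between libraries. The authors' own comparisons were not used.

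Library sizes were scaled by TMM (edgeR 4.0.16, R 4.3.3). Log2 ratios used a prior of 0.5 counts and exact conditional binomial intervals at 95%. With 1 library per group no comparison between groups could be tested. The additive model was a robust edgeR quasi-likelihood fit on 11760 genes with at least 1 CPM in 2 libraries, with Benjamini-Hochberg adjustment over all of them and a threshold of 0.05. DESeq2 1.42.0 and limma 3.58.1 served as alternatives. Other alternatives were other scalings, filters, folds, priors and FPKM pseudocounts. The p-values measure only the misfit of these 4 pools and not the variation between mice. The scripts were tested on simulated data with changes for training, placed in genes at a mean of 5 CPM or more. The additive model recovered 32 of 100 2-fold changes and 100 of 100 4-fold changes, with 1 false call. A gene that was not called may thus still differ 2-fold. A count of 3, taken as the floor, corresponds to 0.102 to 0.127 CPM.

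The members and the 15 other gene lists were chosen with earlier results of these data known. All 10 members are named. Of each other list the genes past 2-fold in any comparison with at least 1 CPM in a library are named, at most 4 by the size of the ratio, or, where none is, the gene with the largest ratio. Other genes are named where the text says so or as the defining markers of a cell type. The 3 genes closest in profile were sought for Lyve1, the member with the widest range. Positions are those of the files (mm10), and for 8 of 10 both ends are those of GENCODE M21. RefSeq promoters (GRCm38.p6) were found for 4 members.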

Additional observations from a re-analysis of the deposited data

Results flagged for a closer look

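The following genes had opposite log2 ratios in the 2 parallel comparisons, with counting intervals that excluded 0 on both sides. With 1 library per group each is a set of single libraries, and the difference was not tested. The share of all genes that cross in this way is not given, so the members listed are not set apart from other genes. For amyloidosis, Stab1 was at -0.23 in FS versus VS and 0.43 in FI versus VI, Clec4g at -0.30 and 0.24, and Oit3 at -0.24 and 0.36. For training, Clec4g was at -0.29 in vehicle mice (VI versus VS) and 0.26 in fibril mice (FI versus FS), and Oit3 at -0.21 and 0.39. The training and the amyloidosis values of a gene come from the same 4 libraries and restate one difference of differences.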

How the results depend on the processing

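No paired analysis was possible because the groups share only 1 replicate number, and no library could be left out because each group has 1. The count of members higher in FI versus FS went from 1 to 2 at a fold of 1.5. On FPKM with a pseudocount of 1 the count for FS versus VS was 0, since Lyve1 then had a ratio of 0.45. For training in the additive model 1 member was called higher without a filter on low counts (Lyve1). For amyloidosis, 0 members were called higher at 5 CPM in 2 libraries, where Lyve1 was not tested, and 0 with the factor fitted alone. There 1 was called lower (Kdr) with DESeq2 size factors in edgeR and 1 without a filter. The members' median relative to all genes rather than to endothelial genes was 0.35 in FI versus FS, -0.20 in FS versus VS and 0.29 in FI versus VI, so that its sign turned in FI versus FS (from -0.02) and in FS versus VS (from 0.25). Relative to the summed CPM of the endothelial genes instead of their median, the members' median in FI versus FS was also positive. On that reference the intervals of Stab2 (-0.10, -0.22 to 0.01), Vwf (-0.36, -0.78 to 0.05) and Clec4g (-0.01, -0.12 to 0.10) held 0 in FI versus FS, and Kdr stayed below it (-0.34, -0.49 to -0.19). The calls over all genes, 157 for training and 540 for amyloidosis, were 740 and 1519 without a filter, 91 and 406 at the stricter filter, 0 and 8 with the factor alone, 182 and 470 in DESeq2, 228 and 688 in limma, and 241 and 747 with DESeq2 size factors. Leaving skeletal muscle genes out of the library totals, chosen after seeing the data, changed no count of members. No called value changed sign. Depth limits Lyve1 in VS and VI, with 16 and 25 counts, and Vwf, with 89 to 116.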
